A study of Nothobranchius furzeri with 20 samples.

Results

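Genes whose skin expression moved in the same direction from 9-week fish, through one title run of 27-week fish, to the other title run were collected by a rule on the deposited counts. The rule found 36 rising genes and 177 falling genes among 16648 genes of moderate level, and the 100 falling genes with the largest change were kept, so that the set holds 36 and 100 of the 26739 genes in the table. RNA had been taken from the skin of male Nothobranchius furzeri (strain MZM-04/10p), the turquoise killifish, an annual species whose short natural lifespan makes it a model of vertebrate ageing. The 20 libraries were labelled as 5 from fish of 9 weeks without perturbation, 5 from 9-week fish after swim tunnel exercise, that is, swimming against a flow of water, and 10 from exercised fish of 27 weeks. The 27-week fish carried titles JM132 to JM136 and JM140 to JM144 under the same label, and the titles name no condition that separates them. No unexercised fish of 27 weeks were analysed here. Each age had its own titles, so age and anything else that goes with the titles cannot be told apart. At 9 weeks the exercised libraries were JM117 to JM121 and the unexercised ones JM124 to JM128. Exercise at that age thus cannot be told apart from anything else that goes with the titles either.

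Fish skin is a living, non-keratinised epithelium with mucus-secreting cells over a dermis that carries scales, pigment cells, vessels and collagen. Its transcriptome mixes these cell types with blood and any adhering muscle. In such bulk samples, fewer cells of a type and less RNA per cell cannot be told apart. A stepwise order over 3 sets of libraries describes how the sets lie to each other and not the course of an animal over time. The labels do not say whether each library came from a separate fish, so values are counted by library. The files pair gene identifiers with no gene names, and 0 of 26739 identifiers matched the RefSeq gene table of the assembly NfurGRZ-RIMD1. The members therefore carry no known function here, the skin label could not be checked against marker genes, no sequence is shown, and 2 identifiers in each direction are given while other members are described by their rank.

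The members were chosen on the same values that are described. Counts were divided by the column total and given as CPM, a count scaled to a fixed library total, and levels were put on the scale log2(CPM + 0.5). A gene with a mean of 1 to under 1000 CPM was a rising member if every 9-week library lay below every library of JM140 to JM144 and each of these lay below every library of JM132 to JM136. A falling member had the reverse order. The exercised and unexercised 9-week ranges had to overlap. Members were ranked by the difference between the mean of JM132 to JM136 and the mean of 9 weeks. The steps between the sets are thus a description without a test. Library totals ran from 20597690 to 38619614 counts.

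The median rising member was 4.49-fold higher in JM132 to JM136 than at 9 weeks. Their mean log2(CPM + 0.5) in the 9-week libraries was 2.99 ± 0.0869 (SD, n = 5) without exercise and 2.89 ± 0.0791 (SD, n = 5) with it. It was 3.66 ± 0.148 (SD, n = 5) in JM140 to JM144 and 4.92 ± 0.11 (SD, n = 5) in JM132 to JM136. Summed over the 36 genes, the 10 young libraries averaged 596.3 ± 72.8 CPM (SD), while the 5 of each title run averaged 1076 ± 154.1 and 2596 ± 197.3 CPM (SD). Single libraries spanned 522.9 to 690.1 CPM at 9 weeks, 939.6 to 1289 CPM in JM140 to JM144 and 2374 to 2806 CPM in JM132 to JM136. The sums of the sets did not overlap, which the choice of the members fixes.

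The falling members declined in the mirror order. Their mean log2(CPM + 0.5) at 9 weeks was 5.07 ± 0.069 (SD, n = 5) without exercise and 5.04 ± 0.169 (SD, n = 5) after it. It was 4.22 ± 0.0797 (SD, n = 5) in JM140 to JM144 and 3.13 ± 0.0692 (SD, n = 5) in JM132 to JM136. The sum over the 100 genes was 5646 ± 517.4 CPM (SD, n = 10) at 9 weeks, 3219 ± 166.6 CPM (SD, n = 5) in JM140 to JM144 and 1530 ± 68.8 CPM (SD, n = 5) in JM132 to JM136. In summed CPM, exercised 9-week libraries varied most, from 4966 to 6662 CPM. The narrowest set was JM132 to JM136, at 1436 to 1612 CPM, which also had the lowest level. On the log2(CPM + 0.5) scale its SD of 0.0692 was like the 0.069 of unexercised 9-week libraries.

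**Figure D1:**
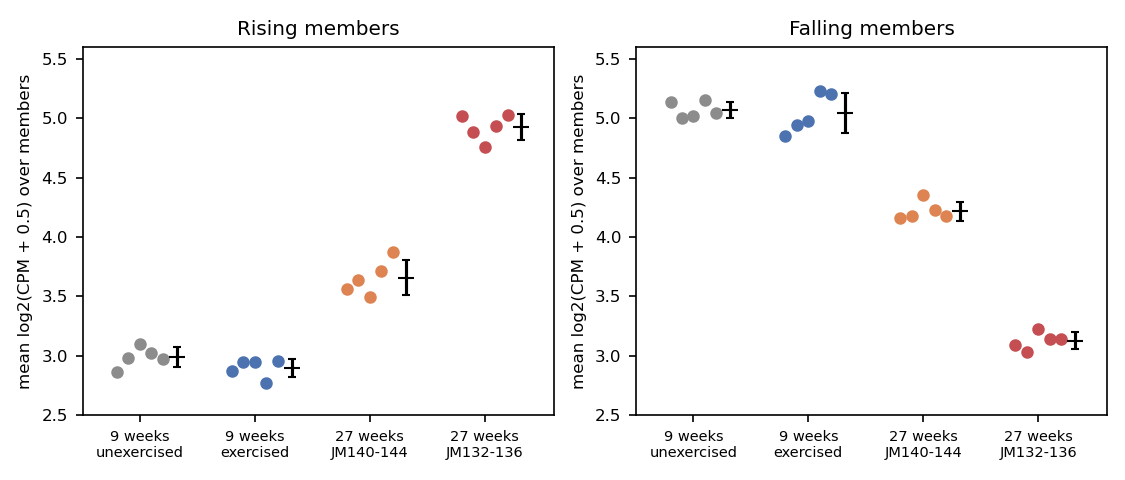
Mean log2(CPM + 0.5) over the 36 rising members (left) and the 100 falling members (right) in each of the 20 libraries, with the mean and SD of each set of 5 beside the points. Rising members lay at 2.77 to 3.10 in 9-week libraries and 4.76 to 5.03 in JM132 to JM136, and falling members at 4.85 to 5.23 and 3.03 to 3.22, with JM140 to JM144 between them in each panel.

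The order was rare in the table. All conditions together were met by 36 rising genes, 0.216% of the 16648 genes, and by 177 falling genes, 1.06%. The parts of the rule were met by very different shares of the same genes. JM140 to JM144 lay wholly above the 9-week libraries in 1.07% and wholly below them in 9.23%. JM132 to JM136 lay wholly above JM140 to JM144 in 27.9% and wholly below them in 5.45%. With column totals the first step was thus the narrower condition for rising genes and the second step for falling genes. The rule used these contrasts, so nothing is read from the members' share of them.

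There are 6 ways in which 3 sets can be ordered without overlap. The falling order was found in 181 genes and the rising order in 36, before the condition on the 9-week groups, which removed 4 falling and 0 rising genes. In 68 genes JM140 to JM144 lay lowest and JM132 to JM136 highest, with the 9-week libraries between them. The other orders held 5, 1 and 0 genes. With TMM scaling, which sets the libraries so that the bulk of genes is level, the same mixed order held 13 genes in place of 68.

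Among all genes in which JM132 to JM136 lay wholly above the 9-week libraries, JM140 to JM144 usually stayed with the 9-week libraries. Of these 2865 genes, JM140 to JM144 overlapped the 9-week range alone in 2468 (86.1%) and the range of JM132 to JM136 alone in 47 (1.64%). They lay between the other sets in 36 (1.26%). Of the 1781 genes in which JM132 to JM136 lay wholly below the 9-week libraries, the overlap was with the 9-week range alone in 505 (28.4%), with JM132 to JM136 alone in 458 (25.7%) and with both in 632 (35.5%). JM140 to JM144 lay between the others in 181 (10.2%). With TMM the overlap was with the 9-week range alone in 72.1% of 2870 higher genes and 55.7% of 2323 lower genes.

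The numbers of rising and falling members depended on how the libraries were scaled. With column totals, the median gene of the 16648 was 0.20 lower on the log2 scale in JM140 to JM144 than at 9 weeks, and 0.23 higher in JM132 to JM136 than in JM140 to JM144. TMM scaling left medians of -0.02 and -0.03. The TMM factors averaged 1.02 ± 0.0956 (SD, n = 10) at 9 weeks, 0.891 ± 0.0443 (SD, n = 5) in JM140 to JM144 and 1.08 ± 0.0839 (SD, n = 5) in JM132 to JM136, so the scaling moved with the sets. With TMM scaling, 196 genes rose and 146 fell stepwise, a share of 57.3% rising against 16.9% with column totals. The excess of falling over rising genes was therefore not kept.

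Most members met the conditions under both scalings. All 36 rising and all 100 falling members kept the order of their means with TMM, and 29 rising and 53 falling members also kept 3 ranges without overlap. The 7 rising members that were lost overlapped between JM140 to JM144 and JM132 to JM136. Of the falling members, 46 then overlapped between 9 weeks and JM140 to JM144, and in 3 the exercised and unexercised 9-week ranges no longer overlapped. Each of the 4 genes named below passed under both scalings.

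**Figure D2:**
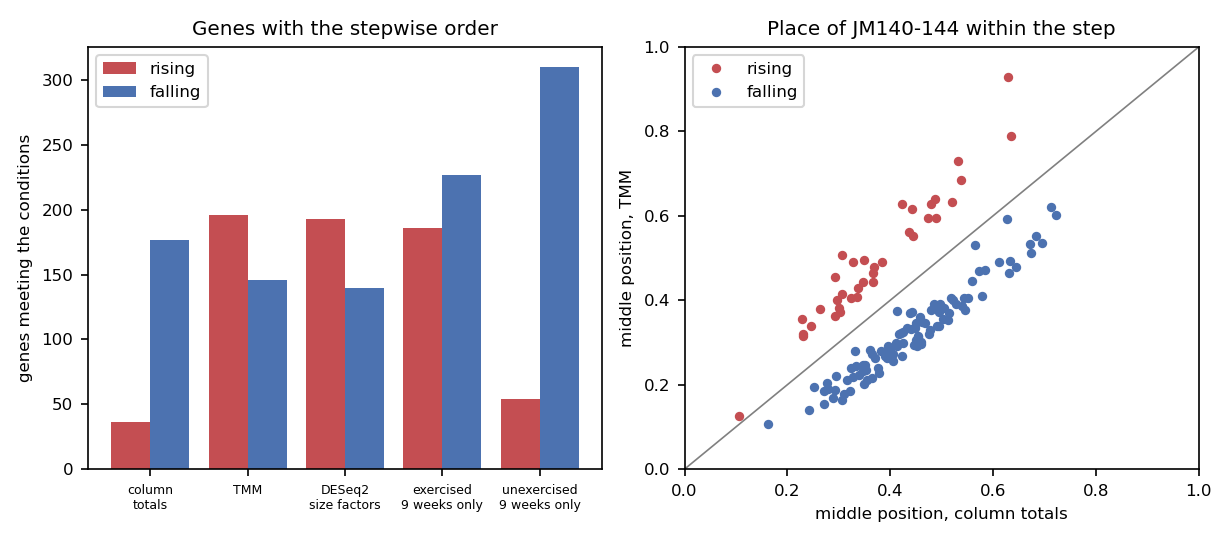
Left, genes meeting the stepwise order in each direction under 3 scalings of the libraries and with 9-week libraries of 1 group alone (bars start at 0); rising genes number 36 with column totals and 196 with TMM, falling genes 177 and 146. Right, the share of the step reached by JM140 to JM144 in each member with column totals and with TMM; points of rising members lie above the line of equality and those of falling members below it.

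Among the rising members, the largest step belonged to Nfu_g_1_014186, with a gene length of 3.11 kb. Unexercised libraries of 9 weeks had 7.29, 6.27, 11.8, 7.91 and 7.48 CPM, and exercised libraries of that age had 9.00, 9.72, 6.83, 6.54 and 7.42 CPM. Fish of 27 weeks had 15.4, 15.8, 14.0, 16.5 and 22.8 CPM in JM140 to JM144, and 64.1, 69.0, 57.8, 77.6 and 89.9 CPM in JM132 to JM136. The 9-week groups were interleaved, and the highest of them, replicate 3 without exercise, lay below the lowest library of JM140 to JM144. The mean was 2.1-fold higher in JM140 to JM144 than at 9 weeks and a further 4.24-fold higher in JM132 to JM136, or 8.92-fold in all. The log2 differences fitted by edgeR, which used TMM and not column totals, were 1.26 (SE 0.136) for the first step and 1.83 (SE 0.165) for the second.

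Nfu_g_1_004709, the second-ranked rising member, was expressed at a higher level. Unexercised libraries of 9 weeks had 30.6, 40.1, 44.4, 47.2 and 53.5 CPM, and exercised libraries had 31.5, 31.5, 25.6, 35.8 and 35.9 CPM. Fish of JM140 to JM144 had 57.1, 59.5, 74.97, 100.8 and 126.6 CPM, and those of JM132 to JM136 had 287.3, 279.3, 221.8, 446.0 and 327.3 CPM. The libraries of JM140 to JM144 were spread widely, and the gap between their lowest and the highest 9-week library was 0.09 on the log2(CPM + 0.5) scale. Means differed 2.23-fold between 9 weeks and JM140 to JM144 and 3.73-fold between the title runs. Per kb of gene length its level at 9 weeks was 9.18 CPM, above the 2.58 CPM per kb of Nfu_g_1_014186.

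The steepest fall of all 16648 genes was that of Nfu_g_1_001708 (2.42 kb). Unexercised libraries of 9 weeks had 138.2, 146.5, 126.6, 174.8 and 264.0 CPM, and exercised libraries of that age had 190.3, 349.8, 108.5, 269.6 and 235.7 CPM. Fish of JM140 to JM144 had 32.2, 55.8, 35.3, 26.1 and 41.2 CPM, and those of JM132 to JM136 had 3.59, 2.87, 2.49, 4.74 and 2.91 CPM. Every library of JM140 to JM144 was far below the lowest young library and far above the highest library of the other run. The mean was 5.26-fold lower in JM140 to JM144 than at 9 weeks, and 11.5-fold lower again in JM132 to JM136, a 60.4-fold difference over both steps. The edgeR log2 differences, with TMM, were -2.21 (SE 0.309) and -3.77 (SE 0.362).

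Nfu_g_1_001750 (0.732 kb), next in rank, fell to the limit of detection. Its counts were 269, 457, 282, 347 and 458 in unexercised and 379, 504, 146, 505 and 390 in exercised libraries of 9 weeks. They were 53, 63, 69, 29 and 29 in JM140 to JM144 and 1, 1, 1, 7 and 0 in JM132 to JM136. In CPM the means were 12.2 ± 3.97 (SD, n = 10), 1.69 ± 0.657 (SD, n = 5) and 0.0589 ± 0.0707 (SD, n = 5). The first step was a 7.2-fold difference of means, and both steps together a 207.1-fold difference, larger than that of Nfu_g_1_001708. With so few counts in the last set, the log2 difference of the whole step moved with the pseudocount, from -4.43 at 0.5 to -6.27 at 0.1 and -3.56 at 1. By edgeR it was -7.58, against -5.99 for Nfu_g_1_001708, so which of these genes fell more depended on the measure. Replicate 3 of the exercised 9-week libraries had the lowest young level of this gene and also of Nfu_g_1_001708.

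**Figure D3:**
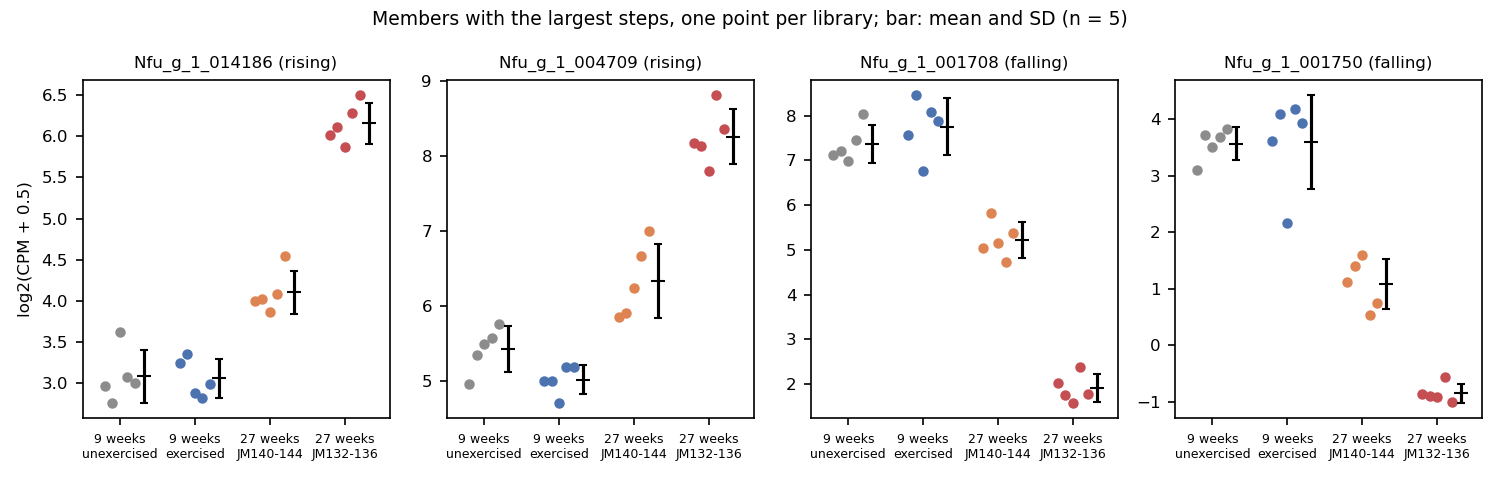
Level on the log2(CPM + 0.5) scale in each library for the 2 rising and 2 falling members with the largest steps, with the mean and SD of each set of 5 beside its points. The sets of 27 weeks do not overlap each other or the 9-week libraries in any panel, and the exercised and unexercised 9-week libraries overlap in all 4.

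Over the 36 rising members the whole step ran from 0.84 to 3.09 on the log2 scale, with a median of 1.92 and quartiles of 1.59 and 2.38. It exceeded 2 in 16 members and 3 in 2. Of the 16648 genes the same difference exceeded 2 in 270, with a median of 0.03, so the rising members are only a small part of the genes that were far higher in JM132 to JM136. The last-ranked rising member, at 0.84, was the only one with a step under 1. No rising gene was left out by the limit of 100.

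Over the 100 falling members the step ran from -5.65 to -1.33, with a median of -1.77. It was beyond -2 in 31 members and beyond -3 in 7. Of all 16648 genes 116 were lower by more than 2, and 17 by more than 3. The last member kept had -1.33 and the first one left out had -1.32, so the limit of 100 cuts through a continuous series. The 77 genes past it had a median of -1.11 and reached down to -0.59.

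The steps were unequal in most members. For each gene the middle position was taken as the step from 9 weeks to JM140 to JM144 divided by the whole step to JM132 to JM136, on the log2 scale. The median middle position was 0.348 in rising members (range 0.105 to 0.634) and 0.439 in falling members (range 0.162 to 0.722). Falling members were kept by the size of the whole step, the divisor of this position, while no rising gene was cut. The 77 falling genes past the limit had a median of 0.494. The larger part of the change lay between the title runs in 31 of 36 rising and 73 of 100 falling members. With TMM the medians of these same members were 0.472 and 0.313, so which direction had the more even steps among them depended on the scaling. A median under 0.5 was found for both directions under both scalings. Over the genes that the rule chose anew, the medians were 0.342 and 0.384 with TMM. They were 0.361 and 0.375 with DESeq2 size factors. The falling median was then the higher one, as with column totals. With TMM the middle position was above 0.5 in 14 rising and 8 falling members. For the 29 rising and 53 falling members that passed under both scalings, the medians were 0.334 and 0.463 with column totals and 0.443 and 0.356 with TMM.

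The first step was mostly under 2-fold. It had a median of 0.74 in rising members (range 0.20 to 1.12) and -0.77 in falling members (range -2.50 to -0.44) on the log2 scale. The shift of -0.20 in the median gene was downward, so it ran against the rising members and with the falling members. All 36 rising and all 100 falling members moved beyond it in their own direction, which any rise fulfils. In size alone, 1 rising member had a first step smaller than that shift, and no falling member did. The first step exceeded 1 in size in 5 rising members and 18 falling members. The second step had medians of 1.24 and -0.99. Both steps were larger than 1 in 4 rising and 8 falling members. In fold terms the median rising member was 1.78-fold higher in JM140 to JM144 than at 9 weeks and 4.49-fold higher in JM132 to JM136, and the median falling member was 1.75-fold and 3.6-fold lower.

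**Figure D4:**
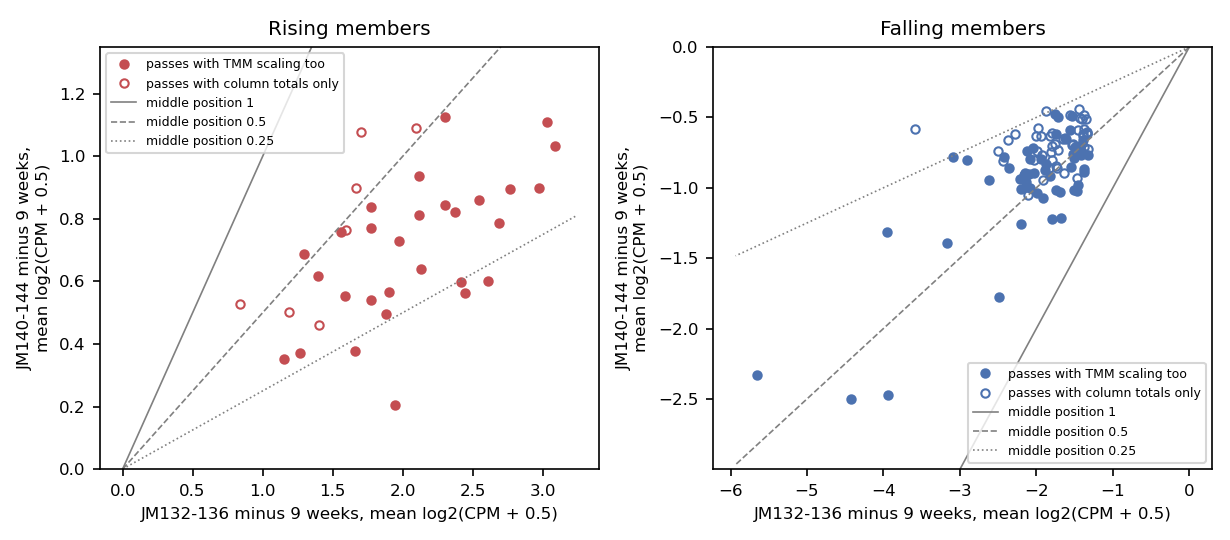
The difference of JM140 to JM144 from 9 weeks (vertical) against that of JM132 to JM136 from 9 weeks (horizontal) for each member, both in mean log2(CPM + 0.5), with lines for middle positions of 0.25, 0.5 and 1. Filled points are the 29 rising and 53 falling members that also met the conditions with TMM scaling; 31 of 36 rising and 73 of 100 falling members lie on the side of the 0.5 line where the title runs differ more.

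Single members stood out from this pattern, and those described by rank were chosen after their values were seen. The falling member of rank 11 had the larger part of its difference between 9 weeks and JM140 to JM144, with a middle position of 0.713. Its means were 22.1 ± 4.75 CPM at 9 weeks, 6.1 ± 1.46 CPM in JM140 to JM144 and 3.44 ± 0.2 CPM in JM132 to JM136 (SD, n = 10, 5 and 5). The falling member of rank 5 had the larger part between the title runs, with 59.7 ± 14.2, 39.02 ± 4.31 and 4.44 ± 0.754 CPM in the same sets (SD, n = 10, 5 and 5). That gene had the lowest middle position of all falling members, 0.162, and did not pass with TMM. The falling member of rank 4, with 8.83 ± 2.92, 1.15 ± 0.49 and 0.0753 ± 0.0551 CPM (SD, n = 10, 5 and 5), resembled Nfu_g_1_001750 and had 0 counts in at least 1 library.

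The rising member of rank 18 was nearly silent in young libraries. It had 0 to 2 counts in every 9-week library. In JM140 to JM144 it had 2 to 4 counts, or 0.0653 to 0.127 CPM, so its first step rested on very few counts. In JM132 to JM136 it had 1.21, 19.4, 0.572, 0.311 and 0.565 CPM, so its mean of 4.41 CPM rested on replicate 2 of the 27-week libraries. It was among the 2 rising members with a 9-week mean under 1 CPM. The most abundant rising member, of rank 24, went from 124.9 ± 39.5 to 256.3 ± 41.3 and 395.6 ± 76.3 CPM (SD, n = 10, 5 and 5), with a middle position of 0.634, and lost its separate ranges with TMM. The most abundant falling member, of rank 79, went from 620.1 ± 94.8 to 412.3 ± 63.1 and 224.5 ± 9.45 CPM (SD, n = 10, 5 and 5), and did not pass with TMM either.

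At the other end, 5 falling members were under 1 CPM in every library of JM132 to JM136. None of the falling members had a 9-week mean under 1 CPM, which the level limit and the falling order fix. The median falling member was more abundant than the median of the 16648 genes of moderate level, and the median rising member was not. The falling order puts 10 of the 20 libraries highest and the rising order 5, and the rule also used the mean level. Nothing is read from this contrast. Mean levels had a median of 11.3 CPM in rising members and 25.5 CPM in falling members, against 13.0 CPM over the 16648 genes, and 20 of 36 rising and 81 of 100 falling members reached 10 CPM, against 57.6% of all.

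The ranges were often separated by little. The gap between the 9-week libraries and JM140 to JM144 had a median of 0.11 on the log2 scale in rising and 0.20 in falling members, and was under 0.1 in 16 of 36 and 23 of 100. The gap between the title runs had medians of 0.66 and 0.46. It was the larger of the gaps in 32 of 36 rising and 73 of 100 falling members. The 9-week set held 10 libraries and the others 5 each, so its range can be wider and the gap beside it smaller. These gaps are those with column totals. With TMM, 46 falling members overlapped between 9 weeks and JM140 to JM144, and 7 rising members between the title runs. Leaving out replicate 3 of the unexercised 9-week libraries, which had the highest TMM factor among the 9-week libraries (1.2), raised the number of rising genes from 36 to 96. Leaving out replicate 6, 7 or 8 of the 27-week libraries, which belong to JM140 to JM144, gave 63, 57 and 62. Falling genes numbered 176 to 231 when any 1 of the 20 libraries was left out.

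Exercise in the 9-week libraries was the one labelled comparison whose size the rule did not use, although the rule removed genes whose exercised and unexercised ranges were separate. By edgeR's quasi-likelihood test on these 10 libraries, 2 of 18520 genes (0.0108%) passed an adjusted p of 0.05, and 0 of 35 rising members tested and 0 of 100 falling members did. At an unadjusted p under 0.05 there were 3 rising members, all 3 lower with exercise, and 17 falling members, 13 higher and 4 lower. Over all genes tested this was 14.8%, with 6.88% higher and 7.90% lower. limma-voom called 0 members. DESeq2 called 515 of the 18370 genes to which it gave an adjusted p (2.80%), among them 1 of 35 rising and 5 of 100 falling members with one. Since the rule removed part of this comparison, nothing is read from these counts.

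The log2 fold change with exercise had a median of -0.06 in rising members (range -0.51 to 0.37) and 0.01 in falling members (range -0.33 to 0.50), against -0.01 over the genes of the same levels. It was below 0 in 21 of 35 rising and 46 of 100 falling members, and in 51.1% of all genes of those levels. The values of the named genes were 0.04 (SE 0.186, edgeR adjusted p = 0.939) for Nfu_g_1_014186 and -0.37 (SE 0.156, adjusted p = 0.316) for Nfu_g_1_004709. They were 0.49 (SE 0.322, edgeR adjusted p = 0.488) for Nfu_g_1_001708 and 0.22 (SE 0.342, adjusted p = 0.792) for Nfu_g_1_001750. None passed, and with 5 libraries in each group the test found 66% of 2-fold and 14% of 1.5-fold changes in simulated data of this comparison, over 18520 genes.

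With fewer young libraries, more genes outside the set met the order. With the 5 exercised 9-week libraries alone as the young set, which share the perturbation label of the 27-week libraries, 186 genes had the rising and 227 the falling order. With the 5 unexercised ones alone these were 54 and 310. All 36 rising and 100 falling members kept the order in each case, which follows by construction, since a part of the young set cannot have a wider range and the condition on the 9-week groups then has no use.

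Gene length, which the rule did not use, was similar to that of other genes. Rising members had a median of 2.38 kb (quartiles 1.31 and 3.65 kb) and falling members 3.06 kb (quartiles 1.77 and 5.27 kb), against 2.82 kb (quartiles 1.43 and 4.84 kb) over the 16648 genes. Below the lower of these quartiles lay 11 of 36 rising and 19 of 100 falling members, and above the upper one 7 and 27. The lengths are those behind the deposited RPKM values. After each library's trend on gene length was removed, 39 genes rose and 180 fell.

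Per kb of length, falling members were the more abundant in young libraries and the less abundant in JM132 to JM136. Their median level was 9.91 CPM per kb at 9 weeks, 6.23 in JM140 to JM144 and 2.67 in JM132 to JM136. Rising members had medians of 3.4, 5.38 and 11.1 CPM per kb in the same sets. The opposite directions of these changes follow from the rule. The rule also used the levels, so nothing is read from the contrast of rising with falling members. The named falling gene Nfu_g_1_001708 went from 82.6 to 15.7 and 1.37 CPM per kb.

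Members of the same direction also varied together between libraries of the same set. The mean Pearson's r over pairs of members, computed over the 20 libraries after the mean of each set of 5 was removed, was 0.188 among rising and 0.214 among falling members, against 0.121 over the 16648 genes. Rising and falling members had a mean r of -0.0655 with each other. With TMM the values were 0.178, 0.239 and -0.0578, against 0.00825 over all genes. These are descriptions: libraries share depth and composition across all genes, and the rule limits the spread inside a set.

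Within sets the members were somewhat less variable than other genes, a property that the rule favours. The median SD of log2(CPM + 0.5) within sets was 0.244 in rising and 0.224 in falling members, against 0.275 over the 16648 genes. Among rising members it was lowest in unexercised 9-week libraries, with a median of 0.184, and highest in JM132 to JM136, with 0.244. Among falling members it was 0.171 in unexercised and 0.227 in exercised libraries of 9 weeks, 0.175 in JM140 to JM144 and 0.249 in JM132 to JM136. Over the 16648 genes these medians were 0.24, 0.236, 0.249 and 0.271 in the same order of sets. JM132 to JM136 was thus the most variable set over all these genes too.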

How the data were processed

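The 20 killifish skin libraries were prepared with a TruSeq RNA kit, per the labels' protocols. Tools named in the submitters' processing notes are featureCounts 1.4.6-p4, STAR 2.4.1d and bcl2fastq 1.8.4. Genome build, annotation, strand setting and handling of reads with several matches: not given in the sources used here. Reads of overlapping, antisense or near-identical genes could have been split between them. The deposited counts hold whole numbers per gene, without normalization. The deposited RPKM values, which the authors scaled by length and library total, were used for gene lengths and as 1 alternative: in 10228 genes tested, count over RPKM was constant (SD of the log ratio under 0.001) in 100% once the 20 totals were recycled down the rows, and in 0% with each library's own total.

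Groups came from the labels and the title runs from the titles, which name no condition. Replicates 1 to 5 of 27 weeks are JM132 to JM136 and 6 to 10 are JM140 to JM144. Nothing in the labels says that each library is a separate fish, so a p-value here covers only sample-to-sample spread, which may be technical. Chi-square over its degrees of freedom was at least 34.3 in the 40 pairs of libraries within sets, far above sampling noise. The members and lists were chosen with earlier results of these data known.

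CPM is a count scaled by its column total. Exercise at 9 weeks was tested with edgeR 4.0.16 (R 4.3.3; TMM, its expression filter, robust quasi-likelihood, Benjamini-Hochberg adjustment over all genes tested, threshold 0.05). Its fold changes between sets come from 1 fit of 3 sets with TMM and carry no test. The SE was taken as the size of the fold change (log2) divided by the root of F. Members were chosen on these set contrasts, and the SE does not cover that choice. Tested on simulated data for exercise over 18520 genes, edgeR recovered 14% of changes of 1.5-fold, 66% at 2-fold, 94% at 4-fold and 96% at 8-fold, and 9 of its 144 calls were false. Alternatives used DESeq2 1.42.0 and limma 3.58.1, other scalings, pseudocounts and level limits, thinned counts, removal of the length trend, other young sets and leaving out each library. Named genes are the 2 in each direction with the largest step. Marker and pathway lists need gene names and were not run.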

Additional observations from a re-analysis of the deposited data

Results flagged for a closer look

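In 28 checks of the 4 named genes, the means over members and the TMM factor in sets of 5 libraries, 1 library stood far from the rest of its set, against about 1.4 by chance. Nfu_g_1_001750 in replicate 3 of the exercised 9-week libraries was at 2.16 on the log2(CPM + 0.5) scale, and the next lowest library of its group had 3.61. This library still lay above every 27-week library for that gene.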

How the results depend on the processing

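No paired analysis was possible because replicate numbers were given by accession order and tie no libraries across groups. With TMM-scaled CPM, 196 genes rose, the falling step had a median of -1.54 and a middle position of 0.384 over the genes then chosen. Of the members, 29 rising and 53 falling then met the conditions, and 23 and 53 were among the 100 at most that are kept in each direction. With DESeq2 size factors 193 genes rose, the falling values were -1.55 and 0.375, and 56 falling members were kept. Thinning to the smallest total gave a rising step of 2.14, pseudocounts of 0.1 and 1 gave 2.12 and 1.72, and a mean of at least 5 CPM gave 2.03. The deposited RPKM values, which carry other libraries' totals, gave 6 rising and 21 falling genes, with 5 and 17 members among them and steps of 2.23 and -2.05. With exercised 9-week libraries alone, all 36 rising members kept their order, but only 17 were among the 100 kept of 186 rising genes, and the rising step, rising middle position and falling step were 2.39, 0.268 and -1.92. With unexercised libraries alone, all 100 falling members kept their order, with 55 among the 100 kept of 310 falling genes, and the falling step and middle position were -2.05 and 0.396. Why these values moved was not tested. That a smaller set cannot have a wider range holds by construction and was not a test.

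Leaving out each library gave 34 to 96 rising and 176 to 231 falling genes, with 32 to 36 rising and 81 to 99 falling members among those kept (96 to 100 falling members met the conditions), median steps of 1.77 to 2.1 and -1.84 to -1.74, and middle positions of 0.313 to 0.382 and 0.412 to 0.441. For exercise at 9 weeks, DESeq2 called 515 genes (2.80%) with 1 rising and 5 falling members, and a fit of all 20 libraries called 5 genes. Leaving out 1 library gave 0 to 7 genes (7 without exercised replicate 1) and 0 members, and median fold changes of -0.11 to 0.00 and -0.04 to 0.05. Of 220 alternative values for the steps of the 4 named genes, 0 changed sign. Most of them left out a library or changed the pseudocount, which cannot reverse sets whose ranges do not overlap. Depth limits Nfu_g_1_001750 in JM132 to JM136, where it had at most 7 counts.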

Other observations

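With all 20 libraries or with some 1 of them left out, 179 genes met the rising order and 464 the falling order. Many genes were thus kept out of the order by a single library. A set with a library left out cannot have a wider range, so such gains are partly built in. With TMM scaling, 13 genes had JM140 to JM144 lowest, JM132 to JM136 highest and 9-week libraries between them, against 68 with column totals.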
